A study of Mus musculus with 12 samples.

Results

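Genomic imprinting silences 1 parental copy of a gene, and 42 mouse genes known to be imprinted outside the Kcnq1 domain were followed here in long-term hematopoietic stem cells (HSCs) of different age. The genes were chosen by symbol from general knowledge of imprinting and not by a rule on their measured values. Earlier results of these data were, however, known when the list was made. All 42 were among the 22548 genes measured by RNA-seq. They lie in 18 clusters or single loci, and 26 are known to be expressed from the paternal and 16 from the maternal copy. The cells came from C57BL/6 mice, an inbred strain in which reads of the parental copies cannot be told apart, so the values are the sum of both alleles and imprinting itself was not measured. All cells were sorted as lineage-negative, Kit+, Sca-1+, CD34-/low and Flk2- and then kept for 16 h in medium with serum at 3% O2. They came from young mice of 2 to 4 months (n = 4 samples, replicates 2 to 5) or from aged mice of 20 to 26 months (n = 5, replicates 0 and 2 to 5). A further group was aged cells exposed to 5 µM CASIN, an inhibitor of the RhoGTPase Cdc42 (n = 3, replicates 1 to 3). Each sample was a pool of sorted cells, of at least 200 cells by the description of the series, whereas the study's methods give a larger number per library. Replicates were described as biological repeats. The comparisons ask how aging, and treatment of aged cells with CASIN, bear on expression.

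Imprinted genes are controlled in clusters, by regions at which DNA methylation was set in the egg or the sperm and is protected afterwards by the zinc finger protein ZFP57 with TRIM28 and DNMT1. Many act on growth: IGF2 is a growth factor, IGF2R removes it, and GRB10 dampens the insulin and IGF receptors. In HSCs, the H19-Igf2 and Dlk1-Meg3 clusters are known for their part in keeping the cells quiescent.

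The values are log2 expression that the authors had brought to a common distribution (quantile normalization), which gives every sample the same highest value of 16.09. Read counts were not analysed here and the depth is unknown. Within a sample, many genes share 1 lowest value, between 0 and 0.67, and a gene above it is called detected. Above it the values rise in steps, each shared by 20 genes or more. The first of these steps held more genes than any other value above the lowest in 12 of 12 samples (459 to 1452 genes), but its height ran from 0.04 in CASIN replicate 2 to 4.11 in young replicate 2. It lay at 1.84 to 4.11 in young, at 0.22 to 1.36 in aged and at 0.04, 3.03 and 3.34 in CASIN-treated samples. The same log2 value therefore stood for a different position above the first step in different samples. Only 14 of the 338 detected values of the imprinted genes (4.14%) lay at or below the first step of their sample.

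The libraries also differed in how much they detected. Of all genes, 27.0% to 42.9% were detected in young, 50.8% to 78.1% in aged and 30.4%, 32.3% and 88.8% in CASIN-treated samples. Of 11 HSC markers, Meis1 was detected in 12 samples and Hlf in 11, whereas Kit and Ly6a, which encode antigens of the sort, were each detected in 4 samples and in 0 of the young ones. Among markers of other blood cells, 3 of 5 T cell genes, Cd3d included, and 1 of 6 myeloid genes, Itgam, were detected in 12 samples. Of the 11 HSC markers 1 was. Of 5 T cell markers, 3 to 4 were detected in young, 4 to 5 in aged and 3 to 5 in CASIN-treated samples, with summed log2 levels of 18.5 to 23.7, 19.3 to 22.0 and 16.0 to 30.0. Of 6 myeloid markers, 2, 3 to 4 and 1 to 5 were detected, with summed levels of 13.3 to 15, 11 to 21 and 9.9 to 12.3. Among them Lyz2 was at 1.749 young minus aged (limma p = 0.0391, adjusted p = 0.764, exact permutation p = 0.0952), S100a9 at 1.436 and S100a8 at 0.672. Mpo, Elane and Itgam went the other way, at -1.549, -2.023 and -0.339. The megakaryocyte marker Pf4 was at 1.012 CASIN-treated minus aged (limma p = 0.0391, adjusted p = 0.948, exact permutation p = 0.0357). Gp9, Vwf and Itga2b, of the same list, were at 0.071, 0.701 and -0.581. The T cell marker Cd4 moved with the groups, with a mean of 4.45 in young, 1.77 in aged and 4.92 in CASIN-treated samples. It was 2.68 higher in young than in aged samples (limma p = 0.00658, adjusted p = 0.639, exact permutation p = 0.0159) and 3.15 higher after CASIN (limma p = 0.00416, adjusted p = 0.876, exact permutation p = 0.0714). The exact test kept the lowest value of each sample, which was 0.43 to 0.67 in young and 0.02 to 0.23 in aged samples. Igfbp2, which no sample detected, therefore also had an exact permutation p of 0.0159 between young and aged, at a difference of 0.42. The other T cell markers did not all move with Cd4. Young minus aged, they were at 0.218 (Cd3d), 0.215 (Cd8a), -0.591 (Cd3e) and -1.296 (Cd3g). CASIN-treated minus aged, they were at -0.065, -1.739, 0.482 and -0.043 in the same order. Of 5 stromal markers, 1 to 4 were detected in young, 3 to 5 in aged and 1 to 5 in CASIN-treated samples, with summed levels of 9.1 to 23.3, 13.5 to 30.4 and 9 to 26. Among them Lepr had means of 3.05, 7.17 and 7.19, a difference of -4.12 young minus aged (limma p = 0.00155, adjusted p = 0.516, exact permutation p = 0.0317), and Col1a2 was detected in 0 young, 4 aged and 1 CASIN-treated samples. Of the other stromal markers, Cxcl12 was also lower in young than in aged samples (-1.977), while Col1a1 and Pdgfrb went the other way. Col1a1 was at 3.121 young minus aged (limma p = 0.0547, adjusted p = 0.764, exact permutation p = 0.143) and Pdgfrb at 0.819. The part of these markers in the results was not tested. In such pools fewer cells with a transcript and less of it per cell cannot be told apart.

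The imprinted genes were detected more often than genes at large in each group. The young samples detected 17, 20, 27 and 20 of the 42 genes, the aged samples 40, 40, 29, 28 and 32, and the CASIN-treated samples 21, 39 and 25. As shares of all pairs of gene and sample, this was 50.0% for the paternally and 50.0% for the maternally expressed genes in young samples, against 34.3% for all genes. In aged samples the shares were 80.0% and 81.2% against 62.6%, and in CASIN-treated samples 70.5% and 62.5% against 50.5%. The share of imprinted genes moved with that of all genes from sample to sample, and both were lower in each young than in each aged sample. The imprinted genes were also longer than genes at large, with a median span of 33912.5 bp against 17471.5 bp. Genes detected in 10 samples or more had a median span of 35188 bp, against 15028.5 bp for the others, so length moves with detection and its part was not tested.

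**Figure D1:**
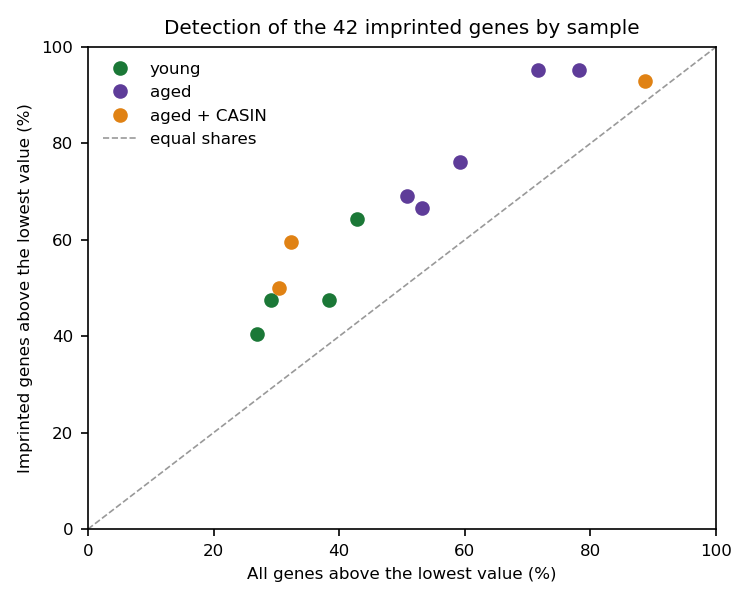
Share of the 42 imprinted genes above the lowest value of their sample (y axis, %) against the same share for all 22548 genes (x axis, %), with 1 point per sample coloured by group and a dashed line of equal shares. All points lie above the line, the 4 young samples between 27.0% and 42.9% of all genes, and CASIN replicate 2 stands at 88.8%, far from the other CASIN-treated samples at 30.4% and 32.3%.

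In 12 of 12 samples, 8 imprinted genes were detected: Igf2, Meg3, Rtl1, Rian, Ppp1r9a, Magel2, Ube3a and Zrsr1. This is 19% of the 42, beside 9.5% of all genes. A further 5 were detected in 10 or 11 samples (Dlk1, Peg3, Impact, Peg10 and Zdbf2), and 4 in 3 samples or fewer (Ins2, Mirg, Mcts2 and Commd1). None of the 42 was undetected throughout. In the young samples 8 imprinted genes stood at the lowest value each time, in the aged samples 0 did so, and in the CASIN-treated samples 3. The share of all genes that did so was not counted. Over all genes, 34.3% of gene and sample pairs were detected in young, 62.6% in aged and 50.5% in CASIN-treated samples. These counts can therefore not be read as a trait of the imprinted genes.

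**Figure D2:**
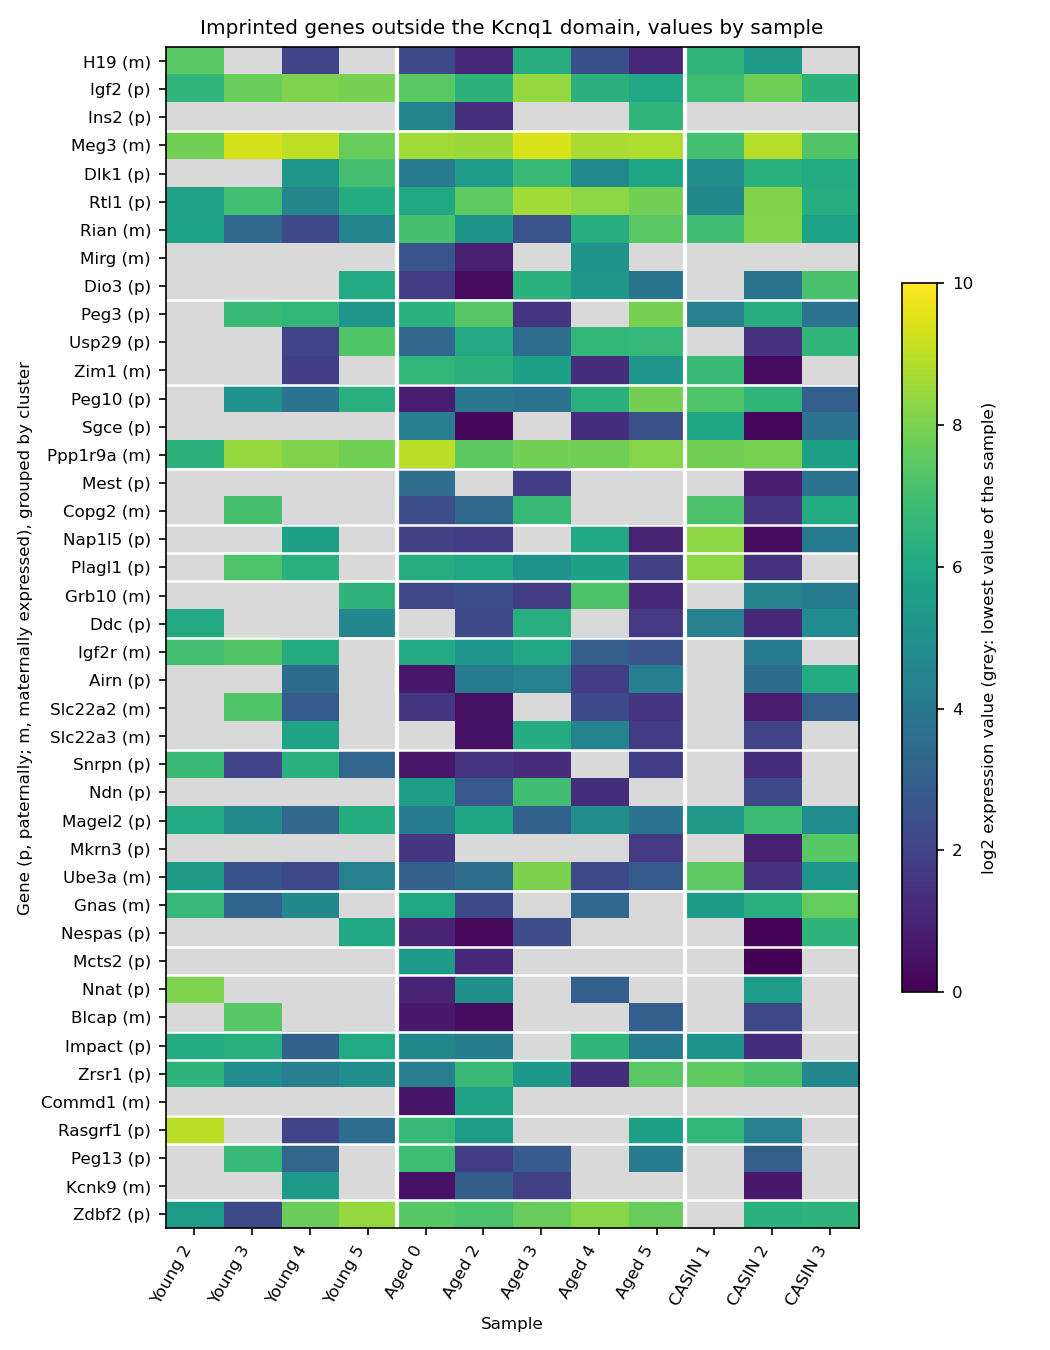
Log2 expression value (colour, 0 to 10) of the 42 imprinted genes (rows, grouped by cluster, p for paternally and m for maternally expressed) in the 12 samples (columns), with grey for the lowest value of the sample. Rows such as Meg3, Igf2 and Ppp1r9a are filled in every sample, while grey is more frequent in the young columns and in CASIN replicates 1 and 3 than in the aged columns.

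Sequences before the transcription start are given for the genes whose values differed between groups at an unadjusted p, and for Meg3, which was detected in every sample. They are the 250 bases before a RefSeq start (build GRCm38.p6, written 5′ to 3′ on the strand of the gene). Where RefSeq lists several starts, the one with most CpG was taken, counted over a longer sequence that includes bases after the start. The printed bases need thus not be those with most CpG. Capitals mark the ZFP57 hexamer, TGCCGC on one strand or GCGGCA on the other. The windows are chr7:60005200-60005449 (minus strand) for Snrpn, chr7:62348027-62348276 (plus strand) for Ndn, chr12:109540746-109540995 (plus strand) for Meg3, chr12:109603695-109603944 (plus strand) for Rian, chr7:6696433-6696682 (minus strand) for Zim1 and chr2:174329756-174330005 (plus strand) for Gnas.
Snrpn: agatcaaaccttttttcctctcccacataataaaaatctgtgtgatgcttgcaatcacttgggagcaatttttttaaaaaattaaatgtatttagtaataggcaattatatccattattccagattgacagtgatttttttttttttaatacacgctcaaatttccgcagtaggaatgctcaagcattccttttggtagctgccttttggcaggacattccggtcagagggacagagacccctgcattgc
Ndn: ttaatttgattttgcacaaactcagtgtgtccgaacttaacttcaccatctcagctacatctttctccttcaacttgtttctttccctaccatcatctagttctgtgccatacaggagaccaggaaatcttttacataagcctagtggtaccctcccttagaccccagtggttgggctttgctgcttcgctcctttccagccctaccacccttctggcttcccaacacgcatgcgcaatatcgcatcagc
Meg3: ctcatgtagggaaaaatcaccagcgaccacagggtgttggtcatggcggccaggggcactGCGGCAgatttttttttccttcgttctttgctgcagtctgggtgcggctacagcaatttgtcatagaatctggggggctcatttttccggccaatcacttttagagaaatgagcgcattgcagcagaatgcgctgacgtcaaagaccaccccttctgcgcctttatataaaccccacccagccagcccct
Rian: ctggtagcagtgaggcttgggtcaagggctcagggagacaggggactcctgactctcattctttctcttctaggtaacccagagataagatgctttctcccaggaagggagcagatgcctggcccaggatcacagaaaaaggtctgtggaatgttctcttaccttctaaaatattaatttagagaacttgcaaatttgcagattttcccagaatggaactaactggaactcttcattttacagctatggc
Zim1: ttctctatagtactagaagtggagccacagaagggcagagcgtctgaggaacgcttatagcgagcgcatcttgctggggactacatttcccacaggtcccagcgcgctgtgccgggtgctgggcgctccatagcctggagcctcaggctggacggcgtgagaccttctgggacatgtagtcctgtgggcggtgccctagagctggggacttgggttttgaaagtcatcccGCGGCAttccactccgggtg
Gnas: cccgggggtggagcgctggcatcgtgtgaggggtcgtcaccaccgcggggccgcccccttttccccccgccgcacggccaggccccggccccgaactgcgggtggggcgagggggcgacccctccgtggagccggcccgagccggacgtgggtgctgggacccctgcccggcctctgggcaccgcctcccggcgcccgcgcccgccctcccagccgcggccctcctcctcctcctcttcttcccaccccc

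The hexamer stood once in the window of Meg3 and once in that of Zim1, and 0 times in the other 4 windows. The number of CpG ran from 0 for Rian, through 3 for Snrpn, 5 for Ndn, 10 for Meg3 and 14 for Zim1, to 29 for Gnas. RefSeq windows were used for 33 of the 42 genes. None was matched for H19, Ins2, Kcnk9, Nespas, Peg10, Peg13, Rtl1 and Sgce. Impact was left out because windows on chromosome 18 were not taken for the imprinted genes, a limit that was not set for genes at large. Of the 33, 8 windows (24.2%) held the hexamer on either strand, beside 11.2% of the windows of 16492 genes. A match is a run of letters and not a site of binding, and the methylated control regions can lie elsewhere.

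No imprinted gene passed the Benjamini-Hochberg adjusted threshold of 0.05 in limma in any comparison. Young against aged HSCs, the lowest adjusted p among the 42 was 0.536, while 4 genes (0.0177% of all) passed. Aged CASIN-treated against aged HSCs it was 0.948, while 5 genes (0.0222%) passed, and young against CASIN-treated HSCs it was 0.829, while 0% of all genes passed. The comparisons of young and of CASIN-treated with aged HSCs share the aged samples. At an unadjusted p under 0.05, 4 of the 42 genes (9.52%) differed between young and aged, beside 5.33% of all genes. Of these 1 was higher in young (Snrpn), beside 2.13% of all genes, and 3 were lower (Zim1, Ndn and Rtl1), beside 3.20%. Between CASIN-treated and aged samples 1 gene differed (2.38%, Gnas), beside 4.40% of all genes. It was higher after CASIN, beside 2.48% of all genes, and 0 were lower, beside 1.92%. Between young and CASIN-treated samples 2 differed (4.76%), beside 4.29% of all genes. Snrpn was higher in young, beside 1.39% of all genes, and Rian lower, beside 2.90%. The share of imprinted genes was above that of all genes between young and aged samples, where it rests on 4 genes, and near or below it in the other comparisons. Of these 7 differences, 3 also had an exact permutation p under 0.05 (Snrpn, Zim1 and Rtl1, each young against aged).

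The samples of 2 groups seldom lay apart. Taking all lowest values as equal, 1 imprinted gene had groups that did not overlap between young and aged (Snrpn), beside 1.96% of all genes. Between CASIN-treated and aged samples it was 1 gene (Zdbf2), beside 2.11%, and between young and CASIN-treated samples 1 gene (Snrpn), beside 2.07%. The median log2 difference over the 42 genes was -0.36 young minus aged, beside -0.02 over all genes, and it became 0.095 beside 0.436 when samples were centred on genes detected in all of them. CASIN-treated minus aged, it was 0.16 beside -0.04, and 0.51 beside 0.312 with this centring. Young minus CASIN-treated, it was -0.36 beside 0.09, and -0.263 beside 0.195 with this centring. The sign of the first of these medians thus changed with the centring. With 1 common lowest value for all samples, the young minus aged median was -0.41 beside -0.172 over all genes. With values below the highest first step set to that step, it was -0.029 beside 0, and 20 of the 42 genes were higher in young. The medians of the other comparisons were then 0, beside 0 over all genes. The gap to all genes thus depended on how low values were treated. The median CASIN-treated minus aged turned to -0.395 without CASIN replicate 2 (all genes -0.099), to -0.263 without CASIN replicate 3 (all genes -0.083) and to -0.248 with the replicate block, and the median young minus CASIN-treated was -0.044 without CASIN replicate 2 and 0.093 with the block. Each young sample also detected fewer genes than each aged one. With the share of genes detected as a covariate, the young minus aged median was -0.699, beside 0.03 over all genes. The part of detection was not tested beyond this fit.

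CASIN replicate 2, the sample with the most genes detected, changed how many imprinted genes differed after CASIN. Without it 6 of the 42 had an unadjusted limma p under 0.05 between CASIN-treated and aged samples, namely Igf2r, Meg3, Mkrn3, Rtl1, Sgce and Zdbf2, beside 7.18% of all genes. Against young samples it was 5 (Igf2r, Meg3, Mkrn3, Sgce and Snrpn), beside 5.82% of all genes. None of these genes passed the adjusted threshold without it.

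**Figure D3:**
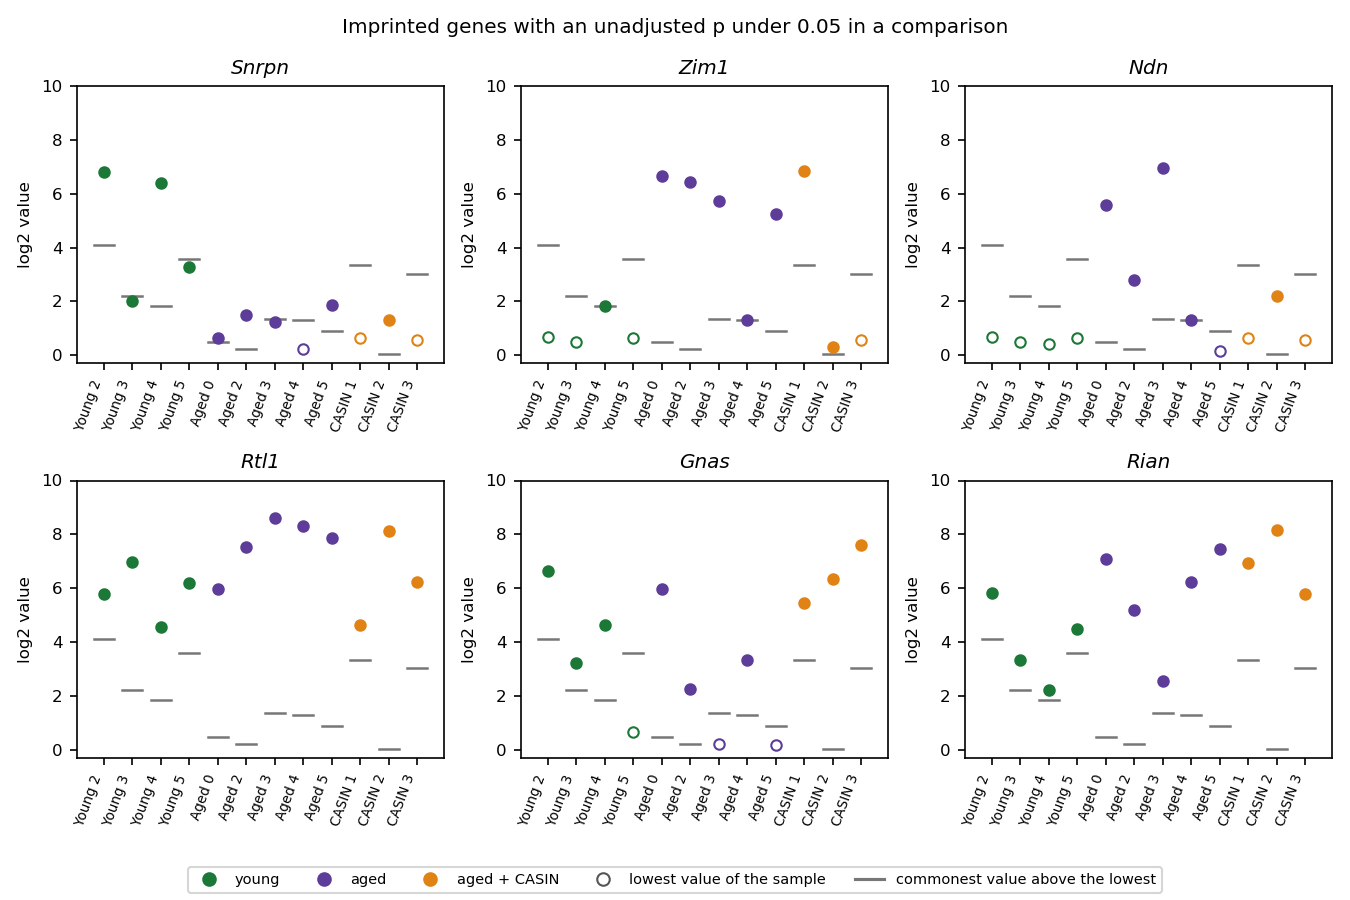
Log2 value (y axis) in each of the 12 samples (x axis) for the 6 imprinted genes with an unadjusted p under 0.05 in a comparison, coloured by group, with open points at the lowest value of the sample and a grey line at its first step. Snrpn in young replicates 3 and 5 (2.00 and 3.27) lies just below the grey line of its sample, and each of the 6 genes but Rtl1 and Rian has open points.

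The Snrpn-Ube3a cluster on chromosome 7, whose loss from the paternal copy causes Prader-Willi syndrome in humans, held both the lowest unadjusted p and a gene that no young sample detected. Snrpn (chr7:59982495-60140219, minus strand) encodes the spliceosomal protein SmN. Its values were 6.81, 2.00, 6.39 and 3.27 in young samples. In aged samples they were 0.64, 1.51, 1.25 and 1.86, with replicate 4 at the lowest value. CASIN-treated replicate 2 had 1.30, and the other two stood at the lowest value. Each young sample lay above each aged and each CASIN-treated sample, the closest being young replicate 3 at 2.00 and aged replicate 5 at 1.86. Young samples averaged 4.62 ± 2.35 (SD, n = 4). The aged mean was 1.10 ± 0.66 (SD, n = 5), and the CASIN-treated mean 0.84 ± 0.41 (SD, n = 3). The log2 difference was 3.52 with an SE of 0.93 young minus aged (limma p = 0.00311, adjusted p = 0.536, exact permutation p = 0.0159, the smallest that 4 against 5 samples can give). It was 3.78 with an SE of 1.06 young minus CASIN-treated (limma p = 0.0045, adjusted p = 0.829), where the exact permutation p of 0.0571 is the smallest that 4 against 3 samples can give.

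The order of the Snrpn samples did not hold against the steps of their own distributions. Samples differed in their number of steps, which is given here with each position. Young replicates 3 and 5 lay below the first step of their samples, at 2.22 and 3.59. In contrast, young replicates 2 and 4 lay above step 48 of 49 and step 74 of 113. Among aged samples, replicate 3 lay below its first step and replicate 0 above step 2 of 105. Aged replicate 5 lay above step 15 of 143 and aged replicate 2 above step 43 of 195. The value of 1.30 in CASIN replicate 2 lay above step 59 of 229. With values below the first step set to the lowest value, the difference was 2.69 young minus aged, with an unadjusted limma p of 0.0652, and 2.75 young minus CASIN-treated, with one of 0.0931. Snrpn shares 9601 bp on the same strand with Snurf, which is made from the same transcript and had nearly the same values (6.70, 2.00, 6.08 and 3.27 in young samples), so reads of the pair cannot be told apart.

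Ndn (chr7:62346569-62350262, plus strand) encodes necdin, a MAGE family protein that restrains cell cycle entry. It stood at the lowest value in 4 of 4 young samples. Aged samples had 5.58, 2.79, 6.95 and 1.30, with replicate 5 at the lowest value, and CASIN-treated samples had 2.21 in replicate 2 and the lowest value in the others. Detection thus fell into 0 of 4 young, 4 of 5 aged and 1 of 3 CASIN-treated samples, and the young and aged groups overlapped at the lowest value. The limma p was 0.0448 between young and aged (adjusted p = 0.764), and the exact permutation p was 0.0794. The limma p lay between 0.0536 and 0.103 after leaving out any sample other than aged replicate 4 or 5, each of young replicates 2 to 5, aged replicates 0, 2 and 3 and CASIN replicates 1 to 3 included. It was also over the threshold with centring (0.079), limma-trend (0.0644), a fit of the 2 groups alone (0.069), the replicate block (0.142) and the share of genes detected as a covariate (0.202). Without the 3 samples that detected most genes it was 0.175, and 0.156 with values below the highest first step set to that step.

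Of the neighbours of Ndn, Mkrn3, a ubiquitin ligase gene, was likewise detected in 0 of 4 young samples, and in 2 of 5 aged and 2 of 3 CASIN-treated samples. Magel2, another MAGE family gene, was detected in all samples, at 6.12, 4.69, 3.29 and 6.20 in young, 4.09, 5.92, 3.11, 4.95 and 3.82 in aged and 5.39, 6.85 and 4.85 in CASIN-treated samples. The groups overlapped throughout, and the difference young minus aged was 0.70 with an SE of 0.78. Ube3a, a ubiquitin ligase imprinted in neurons only, had 5.41, 2.50, 2.21 and 4.37 in young and 3.06, 3.57, 8.04, 2.23 and 2.83 in aged samples. After CASIN it had 7.53, 1.45 and 5.26, so that a single aged and a single CASIN-treated sample stood above the rest.

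The 6 genes of the Dlk1-Meg3-Dio3 cluster on chromosome 12 were detected in 62.5% of gene and sample pairs in young, 93.3% in aged and 77.8% in CASIN-treated samples, beside 34.3%, 62.6% and 50.5% for all genes. The mean of each of its 6 genes was lower in young than in aged samples, with a median log2 difference of -1.67, and 1 of the 6 (Rtl1) had an unadjusted p under 0.05, beside 5.33% of all genes. With centring on genes detected in all samples, the young mean of Meg3 (8.70) was above the aged one (8.57), while those of Dlk1, Rtl1, Rian and Dio3 were below the aged ones. Meg3 (chr12:109541001-109571726, plus strand), the maternally expressed noncoding RNA, had 7.87, 9.34, 9.05 and 7.69 in young and 8.63, 8.51, 9.40, 8.74 and 8.76 in aged samples. CASIN-treated samples had 7.01, 8.90 and 7.30. Of the young samples, 2 lay below all aged ones and 2 within their range, and the difference young minus aged was -0.32 with an SE of 0.52 (limma adjusted p = 0.893). CASIN-treated minus aged, it was -1.07 with an SE of 0.57 (adjusted p = 0.948), with replicates 1 and 3 below all aged samples and replicate 2 among them. Without CASIN replicate 2 it was -1.65, with an unadjusted p of 0.0122.

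Rtl1 (chr12:109589193-109600330, minus strand) is a retrotransposon-derived gene expressed from the paternal copy. Its values were 5.77, 6.97, 4.55 and 6.19 in young, 5.97, 7.52, 8.60, 8.32 and 7.87 in aged and 4.64, 8.12 and 6.24 in CASIN-treated samples. All young samples lay below 4 of the 5 aged samples, and aged replicate 0 lay among the young ones. Young samples averaged 5.87 ± 1.01 (SD, n = 4), and the aged mean was 7.66 ± 1.03 (SD, n = 5). The difference was -1.79 with an SE of 0.80 (limma p = 0.0475, adjusted p = 0.764, exact permutation p = 0.0476). The unadjusted p was 0.0844, 0.14 and 0.0644 without young replicate 2, 4 or 5. Without aged replicate 2, 3, 4 or 5 it was 0.0666, 0.0985, 0.0915 or 0.0781, and without CASIN replicate 3 it was 0.0593. With centring the difference was -1.34 (unadjusted p of 0.129), and with the share of genes detected as a covariate -1.20 (unadjusted p of 0.263). The unadjusted p was 0.064 and 0.0726 with filters on detection and on mean level, 0.0832 with a pseudocount of 0.1, and 0.0512 with values below the highest first step set to that step. Mir127 and Mir433 lie in Rtl1 on the opposite strand, and these small RNAs were detected in 0 and 1 samples.

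Rian (chr12:109603940-109661716, plus strand), a maternally expressed host of small nucleolar RNAs, had its highest mean after CASIN. Its values were 6.95, 8.15 and 5.80 in CASIN-treated, 5.81, 3.35, 2.21 and 4.50 in young and 7.08, 5.19, 2.54, 6.23 and 7.44 in aged samples. Young and CASIN-treated samples touched, since young replicate 2 at 5.81 lay just above CASIN replicate 3 at 5.80, and the aged samples overlapped both groups. Young minus CASIN-treated, the difference was -3.00 with an SE of 1.22 (limma p = 0.0317, adjusted p = 1, exact permutation p = 0.114). The unadjusted p was 0.0663 and 0.0845 without young replicate 3 or 4, and 0.0652 and 0.116 without CASIN replicate 1 or 2. It was 0.0561 with array weights, 0.0789 with the share of genes detected as a covariate, and 0.152 without the 3 samples that detected most genes. CASIN-treated minus aged, the difference was 1.27 with an SE of 1.16.

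Dlk1 (chr12:109452823-109463336, plus strand), a paternally expressed transmembrane protein of the Notch ligand type, was detected in every aged and every CASIN-treated sample but in 2 of 4 young ones. The young values were 5.32 and 7.06 in replicates 4 and 5 and the lowest value in replicates 2 and 3. Aged samples had 4.09, 5.53, 6.74, 4.74 and 5.88, and CASIN-treated samples 4.94, 6.38 and 6.15. The detected young samples thus lay within or above the aged range, and the difference young minus aged was -2.01 with an SE of 1.30 (limma adjusted p = 0.764). Dio3, a thyroid hormone deiodinase, was detected in 1 young sample at 6.10, in the aged samples at 1.77, 0.29, 6.40, 5.30 and 3.88, and in 2 CASIN-treated samples at 3.85 and 7.11. Mirg, a microRNA host, was detected in 3 aged samples and in 0 others, with a highest value of 5.10.

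**Figure D4:**
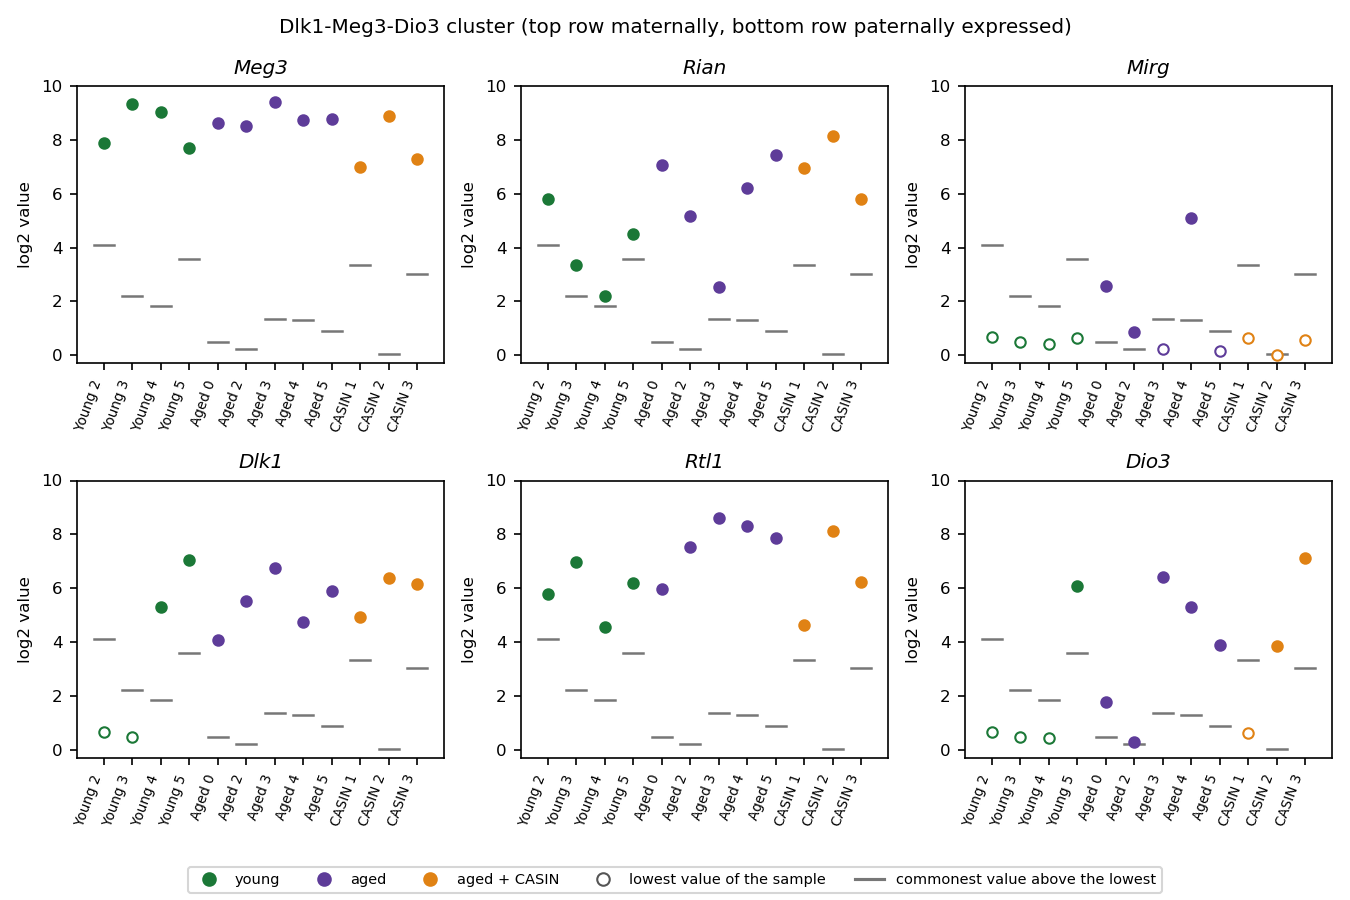
Log2 value (y axis) in each of the 12 samples (x axis) for the 6 genes of the Dlk1-Meg3-Dio3 cluster, maternally expressed genes in the top row and paternally expressed genes in the bottom row, coloured by group, with open points at the lowest value of the sample and a grey line at its first step. Meg3 stays between 7.01 and 9.40 in all samples, while Dlk1 is at the lowest value in 2 young samples and Mirg in 9 of 12 samples.

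In the Peg3 cluster of zinc finger genes on chromosome 7, the maternally expressed Zim1 differed at an unadjusted p and the paternally expressed Peg3 did not. Zim1 (chr7:6671269-6696450, minus strand) was detected in 1 young sample, replicate 4, at 1.84, which is the first step of that sample. Aged samples had 6.64, 6.43, 5.73, 1.30 and 5.23, and CASIN-treated samples had 6.83 and 0.29, with replicate 3 at the lowest value. Of the aged samples, 4 of 5 lay above all young samples, while replicate 4 stood at its first step and overlapped them. Young samples averaged 0.91 ± 0.62 (SD, n = 4), and the aged mean was 5.07 ± 2.18 (SD, n = 5). The difference was -4.16 with an SE of 1.44 (limma p = 0.0151, adjusted p = 0.764, exact permutation p = 0.0317). The unadjusted p stayed between 0.00223 and 0.0364 over the 12 fits that left out 1 sample, and was 0.0947 without the 3 samples that detected most genes. In these, aged replicates 0 and 2 and CASIN replicate 2, Zim1 had 6.64, 6.43 and 0.29.

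Peg3 (chr7:6703892-6730431, minus strand) had 6.77, 6.63 and 5.28 in young samples with replicate 2 at the lowest value. Aged samples had 6.39, 7.39, 1.54 and 7.96 with replicate 4 at the lowest value, and CASIN-treated samples 4.37, 6.24 and 3.82. The groups overlapped, and the difference young minus aged was 0.14 with an SE of 1.84 (limma adjusted p = 0.991). Its paternally expressed neighbour Usp29, a ubiquitin protease, was detected in 2 of 4 young, 5 of 5 aged and 2 of 3 CASIN-treated samples, with a highest value of 7.29.

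Gnas (chr2:174284320-174346744, plus strand) encodes the alpha subunit of the stimulatory G protein, with maternal, paternal and biallelic transcripts. It was detected after CASIN in 3 of 3 samples, at 5.44, 6.36 and 7.62. Aged samples had 5.97, 2.26 and 3.35, with replicates 3 and 5 at the lowest value, and young samples had 6.65, 3.24 and 4.65, with replicate 5 at the lowest value. The CASIN-treated and aged samples overlapped, since aged replicate 0 at 5.97 lay above CASIN replicate 1. CASIN-treated samples averaged 6.47 ± 1.09 (SD, n = 3), against 2.39 ± 2.42 (SD, n = 5) without CASIN. The difference was 4.08 with an SE of 1.52 (limma p = 0.022, adjusted p = 0.948, exact permutation p = 0.0714). The unadjusted p was 0.0505 without CASIN replicate 2 and 0.0803 without CASIN replicate 3. The antisense RNA Nespas overlaps 11117 bp of Gnas on the opposite strand and was detected in 6 samples, and the sources used here do not say if strand was used to assign reads.

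The IGF genes divided into a ligand detected throughout and regulators detected in part. Igf2 (chr7:142650766-142666816, minus strand) had 6.60, 7.76, 8.07 and 7.93 in young, 7.46, 6.47, 8.40, 6.44 and 5.94 in aged and 6.89, 7.79 and 6.45 in CASIN-treated samples. The groups overlapped, with a young mean of 7.59 ± 0.67 (SD, n = 4), an aged mean of 6.94 ± 0.98 (SD, n = 5) and a difference of 0.65 with an SE of 0.58 (limma adjusted p = 0.805). Igf2os overlaps 7124 bp of Igf2 on the opposite strand and was detected in 9 samples. H19 (chr7:142575529-142578143, minus strand), the maternally expressed RNA of the same cluster, had 7.43 and 2.03 in 2 young samples, 2.26, 1.16, 6.23, 2.46 and 1.16 in aged samples, and 6.54 and 5.38 in 2 CASIN-treated samples. Its means in young and aged samples were 2.65 ± 3.26 (SD, n = 4) and 2.65 ± 2.09 (SD, n = 5), and single samples of each group stood above 6.

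Igf2r (chr17:12682406-12769664, minus strand), the receptor that clears IGF2, was detected in 3 of 4 young samples at 7.03, 7.34 and 6.16. Aged samples had 6.13, 5.24, 5.96, 3.03 and 2.54, and after CASIN it was detected in replicate 2 only, at 4.15. The 3 young samples with detection lay above all aged samples, and young replicate 5 below them. CASIN-treated minus aged, the difference was -2.79 with an SE of 1.59 (limma p = 0.108, adjusted p = 0.948, exact permutation p = 0.107), and -3.98 without CASIN replicate 2 (unadjusted p = 0.0492). Airn, the paternally expressed RNA that overlaps 28354 bp of Igf2r on the opposite strand, had 3.52 in 1 young sample. It had 0.65, 4.16, 4.43, 1.80 and 4.31 in aged and 3.52 and 6.15 in 2 CASIN-treated samples. Igf2r and Airn were both detected in 7 samples, Igf2r without Airn in 2 and Airn without Igf2r in 1. Grb10 (chr11:11930508-12038683, minus strand) was detected in 1 young sample at 6.49. Aged samples had 2.21, 2.40, 1.78, 7.20 and 1.16, with replicate 4 apart from the others, and 2 CASIN-treated samples had 4.48 and 4.15. Plagl1, a zinc finger factor that acts on other imprinted genes, had 7.25 and 6.33 in 2 young, 6.22, 5.97, 5.15, 5.74 and 1.90 in aged, and 8.29 and 1.47 in 2 CASIN-treated samples.

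Of 17 other genes of IGF and insulin signalling, 1 differed between young and aged at an unadjusted p under 0.05 (0 higher and 1 lower in young), 3 between CASIN-treated and aged (2 higher and 1 lower after CASIN) and 1 between young and CASIN-treated (lower in young). These are 5.88%, 17.6% and 5.88% of the list, beside 5.33%, 4.40% and 4.29% of all genes. None passed the adjusted threshold, and their median log2 differences were -0.12, 0.06 and -0.37, beside -0.02, -0.04 and 0.09 over all genes. The gene that was lower in young was Igfbp5, which encodes an IGF binding protein, with a limma p of 0.00378 (adjusted p = 0.542) and an exact permutation p of 0.0317. After CASIN, Igf2bp3, whose product binds Igf2 mRNA, had 7.38, 3.88 and 5.74 against 2.26, 2.03, 1.36, 1.97 and 2.92 in aged samples. Of the 17 genes, 2 had groups that did not overlap here, Igf2bp3 included, beside 2.11% of all genes. The limma p of Igf2bp3 was 0.00165 (adjusted p = 0.677), with an exact permutation p of 0.0357. The others after CASIN were Igf1 and Foxo1. Igf1 was higher by 1.917 (limma p = 0.0418, adjusted p = 0.948, exact permutation p = 0.0357). Foxo1 was lower, at -3.407 (limma p = 0.0329, adjusted p = 0.948, exact permutation p = 0.107).

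On chromosome 6, neurabin, encoded by Ppp1r9a (chr6:4902917-5165661, plus strand), stood out for its even values. They were 6.46, 8.43, 8.12 and 7.87 in young, 8.97, 7.49, 7.91, 7.83 and 8.17 in aged and 7.90, 8.0 and 5.74 in CASIN-treated samples. The difference young minus aged was -0.36 with an SE of 0.60. In the same cluster Peg10, a retrotransposon-derived gene, had 5.04, 3.82 and 6.32 in 3 young, 0.75, 3.97, 3.82, 6.35 and 7.90 in aged and 7.26, 6.58 and 3.03 in CASIN-treated samples. Sgce, the epsilon-sarcoglycan gene beside it, was detected in 0 of 4 young samples, in 4 aged samples at 4.29, 0.22, 1.30 and 2.49 and in the CASIN-treated samples at 5.90, 0.12 and 3.82. The value of 0.12 in CASIN replicate 2 is below the lowest value of most other samples. Without that sample the unadjusted limma p of Sgce was 0.015 against aged and 0.00324 against young samples. Both missed the adjusted threshold, with adjusted p of 0.582 and 0.35.

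In the Mest cluster, also on chromosome 6, Mest was detected in 4 samples and Copg2, a coatomer subunit gene that overlaps it by 912 bp on the opposite strand, in 7. Mest, of the hydrolase family, stood at the lowest value in all young samples, and had 3.59 and 1.85 in 2 aged and 0.75 and 3.82 in 2 CASIN-treated samples. Copg2 had 7.09 in 1 young, 2.40, 3.35 and 6.76 in 3 aged and 7.20, 1.58 and 6.15 in the CASIN-treated samples. Nap1l5, a retrogene of the nucleosome assembly family inside Herc3, had 5.72 in 1 young, 1.96, 1.86, 5.99 and 1.0 in 4 aged and 8.32, 0.29 and 4.15 in the CASIN-treated samples. Copg2 and Nap1l5 were thus found in 3 of 3 CASIN-treated and 1 of 4 young samples, and neither passed the unadjusted threshold.

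Of the loci with 1 or 2 genes, Zdbf2, Zrsr1 and Impact were the best detected. Zdbf2 (chr1:63273265-63314576, plus strand), a zinc finger gene, had 7.42, 7.15, 7.68, 8.22 and 7.66 in aged samples, a mean of 7.63 ± 0.40 (SD, n = 5). After CASIN it had 6.39 and 6.52 in replicates 2 and 3 and the lowest value in replicate 1, so that all CASIN-treated samples lay below all aged ones. Young samples had 5.49, 2.22, 7.76 and 8.41, on both sides of the aged range. CASIN-treated minus aged, the difference was -3.11 with an SE of 1.55 (limma p = 0.0709, adjusted p = 0.948, exact permutation p = 0.0357, the smallest that 3 against 5 samples can give), and the fit of these 2 groups alone gave an unadjusted p of 0.0467. Zrsr1, a retrogene related to the splicing factor U2AF that lies inside Commd1, had 6.52, 4.82, 4.29 and 4.96 in young, 4.29, 6.78, 5.32, 1.30 and 7.44 in aged and 7.55, 7.19 and 4.62 in CASIN-treated samples. It was detected in 12 samples and Commd1 in 2. Impact, a regulator of the eIF2 kinase pathway, had 6.16, 6.35, 3.11 and 6.06 in young, 4.62, 4.22, 6.54 and 4.11 in 4 aged and 5.15 and 1.30 in 2 CASIN-treated samples. Young minus CASIN-treated, its difference was 3.08 with an SE of 1.51 (limma p = 0.0673, adjusted p = 1, exact permutation p = 0.114).

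The other imprinted genes were detected in 2 to 9 samples and none had an unadjusted p under 0.05. Usp29, Mkrn3 and Mirg are described above. Among enzymes and transporters, Ddc, which makes dopamine and serotonin, was detected in 8 samples at 1.16 to 6.32. The organic cation transporter genes Slc22a2 and Slc22a3, imprinted in placenta, were detected in 8 samples at 0.46 to 7.29 and in 6 at 0.48 to 6.19. Among signalling genes, the Ras exchange factor gene Rasgrf1 was detected in 8 samples at 2.03 to 8.98, and the potassium channel gene Kcnk9 in 5 at 0.48 to 5.36. The noncoding Peg13 was detected in 7 samples at 1.87 to 6.88, inside Trappc9 on the same strand, which was detected in 12. Nespas was detected in 6 samples at 0.08 to 6.52, and Ins2, an insulin gene, in 3 at 1.36 to 6.54. Nnat and Blcap, the first lying in an intron of the second, were each detected in 5 samples, at 0.98 to 8.05 and 0.32 to 7.40. Mcts2, a retrogene inside H13, was detected in 3 samples at 0.05 to 5.40, and Commd1 at 0.58 and 5.76.

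By parental origin, the 26 paternally expressed genes had a median log2 difference of -0.48 young minus aged, and the 16 maternally expressed genes of -0.34. At an unadjusted p under 0.05 this comparison held 3 paternal genes (1 higher, 2 lower in young) and 1 maternal gene (lower), which is 11.5% and 6.25% beside 5.33% of all genes, whose median was -0.02. CASIN-treated minus aged, the medians were 0.26 and -0.19, beside -0.04 over all genes, with 0 paternal genes and 1 maternal gene (6.25%), beside 4.40% of all genes. Young minus CASIN-treated, they were -0.49 and 0.16, beside 0.09 over all genes, with 1 paternal gene (3.85%, higher in young) and 1 maternal gene (6.25%, lower), beside 4.29% of all genes. Whether the 2 classes differed from each other was not tested, and these medians were not recomputed with other treatments of low values.

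Of 16 genes of imprint maintenance, 1 (6.25%) had an unadjusted p under 0.05 in each comparison, beside 5.33%, 4.40% and 4.29% of all genes. The DNA methyltransferase gene Dnmt3b was lower in young than in aged samples (limma p = 0.00994, adjusted p = 0.739, exact permutation p = 0.0159). Dnmt3a, another such gene, was lower after CASIN than in aged samples (limma p = 0.0298, adjusted p = 0.948, exact permutation p = 0.143). Zfp57 was lower in young than in CASIN-treated samples (limma p = 0.0161, adjusted p = 1, exact permutation p = 0.114). Zfp57 was detected in 1 of 4 young, 4 of 5 aged and 3 of 3 CASIN-treated samples, the last at 7.21, 4.86 and 5.13. Of 24 further imprinted genes, 4 differed between young and aged (1 higher, 3 lower), 1 between CASIN-treated and aged and 2 between young and CASIN-treated at an unadjusted p under 0.05, and 0 at an adjusted p. These are 16.7%, 4.17% and 8.33% of that list, beside 5.33%, 4.40% and 4.29% of all genes. The one after CASIN was Klf14, a maternally expressed zinc finger factor, at 6.89, 6.93 and 7.99 against at most 3.59 in aged samples (limma p = 2.55e-04, adjusted p = 0.338, exact permutation p = 0.0357). In the Kcnq1 domain, 1 of 13 genes (7.69%) differed between young and aged at an unadjusted p, beside 5.33% of all genes. Between CASIN-treated and aged samples 2 did (15.4%), beside 4.40%. Of these, Kcnq1ot1 also passed the adjusted threshold in both comparisons, which no gene of the 42 did. Its log2 differences from aged samples were 15.71 in young and 15.79 after CASIN, where the highest value of every sample was 16.09.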

How the data were processed

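RNA-seq was measured in 12 samples of sorted HSCs. Per the methods and labels, cDNA libraries for low cell numbers were sequenced as paired ends and trimmed, TopHat placed the reads on mm10, and Cufflinks followed. For each gene and sample the authors deposited 1 log2 value after quantile normalization; the step from Cufflinks to these values, tool versions, strand assignment and scaling by length are not given in the sources used here, so levels were compared between samples only. Values above the lowest of a sample were called detected.

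All 22548 genes were fitted with limma 3.58.1 (R 4.3.3; lmFit, eBayes, 12 samples in 3 groups, two-sided, no filter) with Benjamini-Hochberg adjustment, at thresholds of 0.05 for adjusted and unadjusted p. The fit was tested on simulated data. Two-sided exact permutation tests of the difference of group means over samples were added after seeing the data. They kept the lowest value of each sample, which was higher in each young than in each aged sample. A gene that no sample detected can therefore reach the smallest exact p between these groups. Log2 differences include samples at the lowest value, and for genes that a group rarely detected they depend on how low values are treated. Young minus aged, the difference of Zim1 was -4.16, and -5.09 with a pseudocount of 0.1. It was -1.52 with values below the highest first step set to that step. Such differences can thus overstate or understate a change. None is given for an imprinted gene at the lowest value throughout a group. Members, lists and the naming rule were chosen with earlier results of these data known. Values in full are given for genes with an unadjusted p under 0.05, detected in 10 samples or more, or in all samples of 1 group and at most 1 of another, and for a fixed set of growth genes. Alternatives concerned the lowest value, centring, filters, pseudocount, weights, covariates and left-out samples; treatments of the steps and of the samples that detected most genes were added after seeing the data. Gene positions are from GENCODE M21 (mm10). Python 3.11.15 and matplotlib 3.10.9 were used for counts and figures.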

Additional observations from a re-analysis of the deposited data

Results flagged for a closer look

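In 13 of the 51 groups of 4 or 5 samples tested, 1 sample stood apart from the others by Dixon's ratio of its gap to the range, and in 10 of them it was the highest. Chance gives about 1 in 20 groups where values have no floor, a rate against which this count cannot be read, since any single detected value stands apart when the others are at their lowest value. Among young samples, replicate 5 stood apart for Dio3 (ratio 0.957, 6.10) and Grb10 (0.96, 6.49), replicate 3 for Copg2 (0.964, 7.09), and replicate 4 for Nap1l5 (0.964, 5.72), Airn (0.938, 3.52) and Zim1 (0.861, 1.84). In these 6 cases the other young samples were at their lowest value. Young replicate 4 was also low for Impact (0.909), at 3.11 against 6.06 for the next sample.

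Among aged samples, replicate 3 stood apart for H19 (0.744), at 6.23 against 2.46, for Meg3 (0.717), at 9.40 against 8.76, and for Ube3a (0.769), at 8.04 against 3.57. Replicate 4 was high for Grb10 (0.794), at 7.20 against 2.40, and low for Zim1 (0.734), at 1.30 against 5.23. Replicate 5 was low for Plagl1 (0.752), at 1.90 against 5.15. Why these samples stood apart was not tested.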

How the results depend on the processing

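No imprinted gene passed the adjusted threshold under any alternative, and no direction of a gene with an unadjusted p under 0.05 reversed. In brackets stands the share of all genes at the same setting. Young against aged, the 4 genes at an unadjusted p under 0.05 (5.33%) became 2 with centring on genes detected in all samples (6.42%). They became 2 with a detection covariate (4.99%), and 2 to 4 without single samples (5.04% to 5.67%). Among genes averaging 3 or more on the log2 scale 1 was left (7.84%), but this filter kept 22 of the 42 and dropped Snrpn and Ndn. CASIN-treated against aged, 1 (4.40%) became 2 with limma-trend and robust estimation (5.38%) and 2 in a fit of these groups alone (3.92%). Without single samples the count was 1 to 6 (4.08% to 7.18%). Young against CASIN-treated, 2 (4.29%) became 1 among genes averaging 3 or more (6.67%), where Snrpn was not kept. Without single samples the count was 2 to 5 (4.06% to 5.82%). Of alternatives chosen after seeing the data, leaving out the 3 samples with most genes detected gave 2, 4 and 4 (5.02%, 5.97% and 3.65%). Setting values below the highest first step to that step gave 2 between young and aged (2.63%). Setting values below the first step to the lowest gave 1 between young and CASIN-treated (4.28%). The cause was not tested. The exact permutation test, also added, left 3 of the 7 differences under 0.05, and young against CASIN-treated samples cannot go below 0.0571. With the replicate block the counts were 3, 2 and 3 (5.2%, 3.99% and 4.77%), but same-numbered samples shared only a number (r of -0.033 to 0.0576 over 8 pairs). Depth is unknown, and the height of the first step, up to 4.11, limits comparisons of low values between samples.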
